A study of Homo sapiens with 6 samples.

Results

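Death receptors are members of the TNF receptor superfamily that carry a death domain inside the cell. Here 9 genes for such receptors and for the proteins that bind them were examined in H226 cells. The study describes this established human line as lung squamous carcinoma. The 9 genes were taken by gene name from a table of raw read counts with 17222 gene names, and all 9 were listed and passed the filter on low counts. There were 5 receptors, *TNFRSF10A*, *TNFRSF10B*, *TNFRSF10D*, *TNFRSF1A* and *FAS*, and 4 intracellular partners, *FADD*, *CASP8*, *CFLAR* and *RIPK1*. The cells had been transiently transfected with ASO_LINC#3, an antisense oligonucleotide against the lncRNA *SWINGN*, or with the control oligonucleotide ASO_CTRL, and total RNA was taken after 48 h from 3 libraries of each condition. The comparison asks how gene expression responds to *SWINGN* depletion, which the study also followed by staining for apoptotic cells. The depletion rested on 1 oligonucleotide, *SWINGN* RNA was not analysed here, and the methods text names BJ cells for this RNA-seq, whereas the labels and the results text name H226.

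A death receptor that binds its ligand on the cell surface gathers the adaptor FADD, which in turn recruits caspase-8, encoded by *CASP8*, and this complex starts apoptosis. The product of *CFLAR*, c-FLIP, resembles caspase-8, binds the same complex and limits its activation. TRAIL binds the products of *TNFRSF10A* (DR4) and *TNFRSF10B* (DR5), which transmit the death signal, and also that of *TNFRSF10D* (DcR2), a decoy receptor whose death domain is truncated. The TNF receptor encoded by *TNFRSF1A* works mainly through another adaptor, TRADD, and the kinase RIPK1, and signals to NF-κB unless that complex fails. Carcinoma cells commonly express TRAIL receptors and FAS without dying, and the balance of receptor, adaptor, caspase and c-FLIP is regarded as one setting of their sensitivity.

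The libraries held between 3686828 and 10546786 reads on genes, with the fewest in ASO_LINC#3 replicate 3. Counts were scaled to library size by edgeR's TMM method and are given as CPM, the usual measure of counts relative to library size, and the quasi-likelihood test of edgeR was run on 14660 genes, with p-values adjusted over all of them by Benjamini and Hochberg. Called genes are those with an adjusted p under 0.01 whose log2 fold change was also beyond 0.5 in either direction. The study's reporting summary describes its experiments in general as biological triplicates, but the labels do not say of these libraries that they came from separate cultures, so p-values measure only the spread between them, which may be technical. Of 8 squamous markers 2 are listed, *KRT5*, at a mean of 103 CPM in ASO_CTRL and 68.8 CPM in ASO_LINC#3 (log2 fold change −0.58, adjusted p = 0.0192 by edgeR, not called), and *KRT6A*, at 0.0317 and 1.33 CPM and below the filter. Their sum was 94.2 to 117 CPM in ASO_CTRL and 63.3 to 78.7 CPM in ASO_LINC#3, without overlap. The other 6, among them *TP63* and *SOX2*, were not analysed here. The simple-epithelial keratins were abundant, since the 4 listed of 6 epithelial markers summed to between 11700 and 12600 CPM in ASO_CTRL and to between 7090 and 12400 CPM in ASO_LINC#3. All 4 mesothelial markers were listed as well, and their sum was lower in ASO_LINC#3 (208 to 322 CPM) than in ASO_CTRL (632 to 832 CPM), mostly through *CALB2*, which fell by 1.97 on the log2 scale (adjusted p = 0.000195 by edgeR). *UPK3B* was separate downwards at −0.92 but not called (adjusted p = 0.0104 by edgeR). *MSLN* at 0.06 and *WT1* at −0.32 had overlapping conditions. Replicate 3 of ASO_LINC#3 stood apart from the other 2 knockdown libraries in the keratins, with 5250 CPM of *KRT18* against 2920 and 2870 CPM, and within the control range of 4960 to 5250 CPM, so values without it are given beside the results that it moves. The 3 listed of 6 fibroblast markers summed to between 121 and 141 CPM in ASO_CTRL and between 95.1 and 133 CPM in ASO_LINC#3, nearly all of it *THY1*, while *COL3A1* fell from 10.8 to 3.48 CPM (log2 fold change −1.58, adjusted p = 0.00261 by edgeR). The 2 listed of 6 immune markers ranged from 2.55 to 3.61 and from 3.52 to 8.65 CPM, and the 1 listed of 4 endothelial markers from 6.95 to 7.93 and from 2.16 to 3.59 CPM. In bulk RNA, fewer cells of a type and less RNA per cell cannot be told apart, and the part of these shifts in the values given next was not tested.

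The mRNAs of both death-signalling TRAIL receptors were higher in the ASO_LINC#3 libraries, while the intracellular partners of the receptors were not called in either direction. *TNFRSF10B* and *TNFRSF10A* rose, by 1.94-fold and 1.86-fold. *TNFRSF10D* and *FAS* had fitted folds of 1.69 and 1.53 and separate conditions, but were not past the adjusted p-value. *TNFRSF1A* and *FADD* had folds of 0.952 and 1.02. Thus 2 of the 9 genes were called, both higher, where 7.54% of all tested genes were called and 4.91% were called higher. In 4 of the 9, all knockdown libraries lay above all controls, and none had the opposite order, where 18.7% of all tested genes were separate upwards and 36.1% in either direction. At an adjusted p-value below 0.05 with the same fold bound 4 of the 9 passed, against 16.8% of all tested genes. The median log2 fold change was 0.76 over the 5 receptors and −0.07 over the 4 intracellular partners, against −0.00 over all tested genes. These shares and medians describe the 9 genes and are not a test of them as a group.

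**Figure D1:**
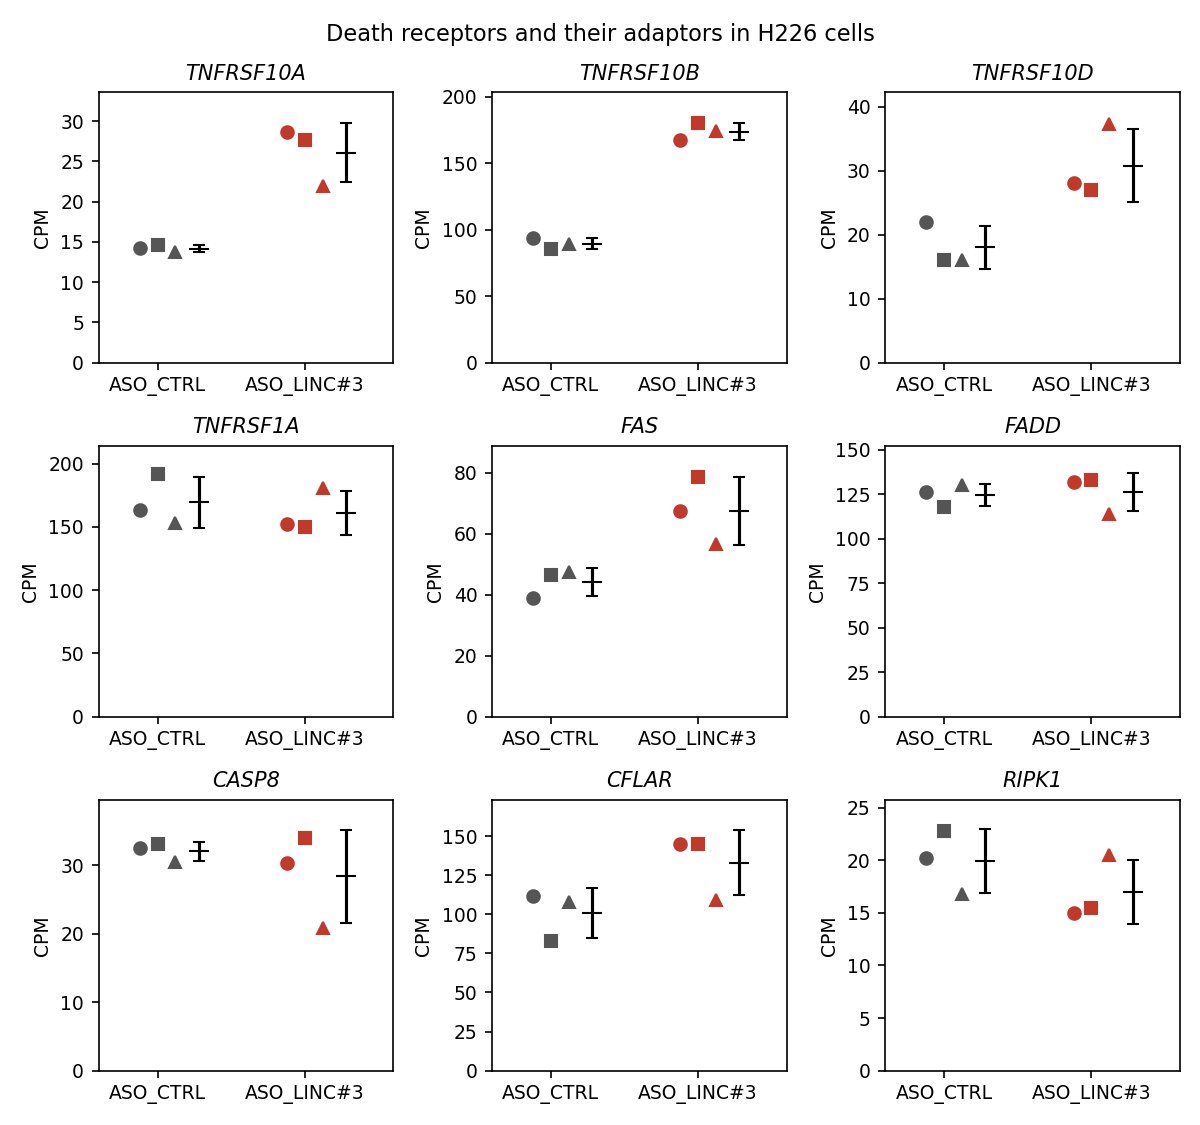
TMM-scaled CPM (y axis, linear from 0) of the 9 genes in the 3 ASO_CTRL libraries (grey) and the 3 ASO_LINC#3 libraries (red), with circles, squares and triangles for replicates 1, 2 and 3 and black bars for the mean ± SD. The red points lie above all grey points for *TNFRSF10A*, *TNFRSF10B*, *TNFRSF10D* and *FAS*, and mix with them for the other 5 genes.

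*TNFRSF10B* encodes DR5, a death-signalling receptor of TRAIL, and lies on chromosome 8 (GRCh37, 22877646 to 22926544, minus strand). It had 93.7, 85.2 and 89.4 CPM in ASO_CTRL replicates 1, 2 and 3, and 167, 180 and 174 CPM in ASO_LINC#3 replicates 1, 2 and 3. All knockdown libraries were well above all controls, and the spread within each condition was small. The mean rose from 89.4 ± 4.25 to 174 ± 6.33 CPM (SD, n = 3 per condition), with a log2 fold change of 0.96 (standard error, SE, 0.12, 95% interval 0.69 to 1.22, adjusted p = 0.000522 in edgeR's quasi-likelihood fit). The call stood in all 6 fits that each left out 1 library, with log2 fold changes between 0.93 and 0.99. The 3 knockdown libraries, set against the control mean, changed by 0.90, 1.01 and 0.96 on the log2 scale.

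*TNFRSF10A* encodes DR4, the other death-signalling TRAIL receptor, and lies on the same strand from 23047965 to 23082615. It was a low-count gene, with 106, 85 and 144 reads in the control libraries and 196, 162 and 81 reads in the knockdown libraries. Scaled to library size these were 14.2, 14.6 and 13.7 CPM against 28.7, 27.7 and 21.9 CPM. The conditions were separate, and replicate 3 of the knockdown was nearest to the controls. The mean rose from 14.2 ± 0.447 to 26.1 ± 3.68 CPM (SD, n = 3 per condition), with a log2 fold change of 0.89 (SE 0.17, 95% interval 0.53 to 1.26, adjusted p = 0.00488 by edgeR). The call was lost when ASO_CTRL replicate 1, 2 or 3 or ASO_LINC#3 replicate 1 or 2 was left out (adjusted p from 0.0182 to 0.0363 by edgeR), and was stronger, at 1.00, in the fit that left out ASO_LINC#3 replicate 3 (adjusted p = 0.000303 by edgeR).

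*TNFRSF10D*, the decoy TRAIL receptor DcR2, lies between these genes from 22993101 to 23021540, also on the minus strand. It had 21.9, 16.1 and 16.1 CPM in the controls and 28, 27 and 37.3 CPM in the knockdown libraries. Here replicate 3 of the knockdown was the highest library, unlike in *TNFRSF10A*, and the conditions again did not overlap. The means were 18.0 ± 3.34 and 30.8 ± 5.69 CPM (SD, n = 3 per condition), with a log2 fold change of 0.76 (SE 0.19, 95% interval 0.34 to 1.18, adjusted p = 0.021 by edgeR), which is not past 0.01. DESeq2 gave an adjusted p of 0.00686 for the same fold, and the fit without ASO_LINC#3 replicate 3 gave 0.61 (adjusted p = 0.0148 by edgeR).

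The 3 *TNFRSF10* genes stand close together, with 66556 bases between *TNFRSF10B* and *TNFRSF10D* and 26424 bases between *TNFRSF10D* and *TNFRSF10A*. The fourth gene of this family, *TNFRSF10C*, a decoy receptor without a death domain, was below the filter at 0.407 ± 0.0664 CPM in ASO_CTRL and 0.367 ± 0.281 CPM in ASO_LINC#3 (SD, n = 3 per condition). Of 13 other tested genes within 500 kb of the 3 genes, a window chosen after their values were seen, 2 were called, both higher, against 4.91% of all tested genes, and 7 had all knockdown libraries above all controls, against 18.7%. The called neighbours were *SLC25A37*, a mitochondrial iron importer, at a log2 fold change of 0.98 (SE 0.13, adjusted p = 0.00077 by edgeR), and *PDLIM2* at 0.68 (SE 0.14, adjusted p = 0.00937 by edgeR). *SLC25A37* kept its call in all 6 fits without 1 library, whereas *PDLIM2* kept it only in the fit without ASO_LINC#3 replicate 3, with adjusted p from 0.0185 to 0.0559 in the other 5. The median over these 13 genes was 0.43. *TNFRSF10B* shares 377 bases at its 3′ end with *RHOBTB2* on the opposite strand, which had a log2 fold change of −0.41 (SE 0.23, adjusted p = 0.247 by edgeR). Against the control mean, *RHOBTB2* changed by −0.52, −0.69 and 0.04 in ASO_LINC#3 replicates 1, 2 and 3. Whether reads were counted by strand is not given in the sources used here.

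*FAS*, the receptor of FAS ligand, lies on the plus strand of chromosome 10 from 90750414 to 90775542. It had 39.0, 46.5 and 47.4 CPM in the controls and 67.3, 78.7 and 56.5 CPM in the knockdown libraries. The lowest knockdown library, replicate 3, still lay above the highest control. The means were 44.3 ± 4.63 and 67.5 ± 11.1 CPM (SD, n = 3 per condition), with a log2 fold change of 0.61 (SE 0.16, 95% interval 0.26 to 0.96, adjusted p = 0.0227 by edgeR), so the gene was not called. Without ASO_LINC#3 replicate 3 it was called, at 0.72 (adjusted p = 0.00148 by edgeR), and it was also called with offsets for GC content and transcript length, at 0.53 (adjusted p = 0.00911). The first 683 bases of *FAS* overlap *ACTA2* on the opposite strand, a smooth-muscle actin gene at a log2 fold change of −0.58 (adjusted p = 0.143 by edgeR). Against the control mean, *ACTA2* changed by −1.15, −0.85 and 0.06 in knockdown replicates 1, 2 and 3, so replicate 3 stood apart.

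*TNFRSF1A*, the main receptor of TNF, lies on the minus strand of chromosome 12 from 6437923 to 6451280 and had the highest CPM of the 9 genes in ASO_CTRL. It had 163, 192 and 153 CPM in the controls and 152, 150 and 181 CPM in the knockdown libraries. The conditions overlapped, and knockdown replicate 3 was above 2 of the controls. The means were 169 ± 20.2 and 161 ± 17.5 CPM (SD, n = 3 per condition), with a log2 fold change of −0.07 (SE 0.14, 95% interval −0.38 to 0.24, adjusted p = 0.767 by edgeR). Without ASO_LINC#3 replicate 3 the log2 fold change was −0.16. The interval of *TNFRSF10B* lay wholly above that of *TNFRSF1A*.

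**Figure D2:**
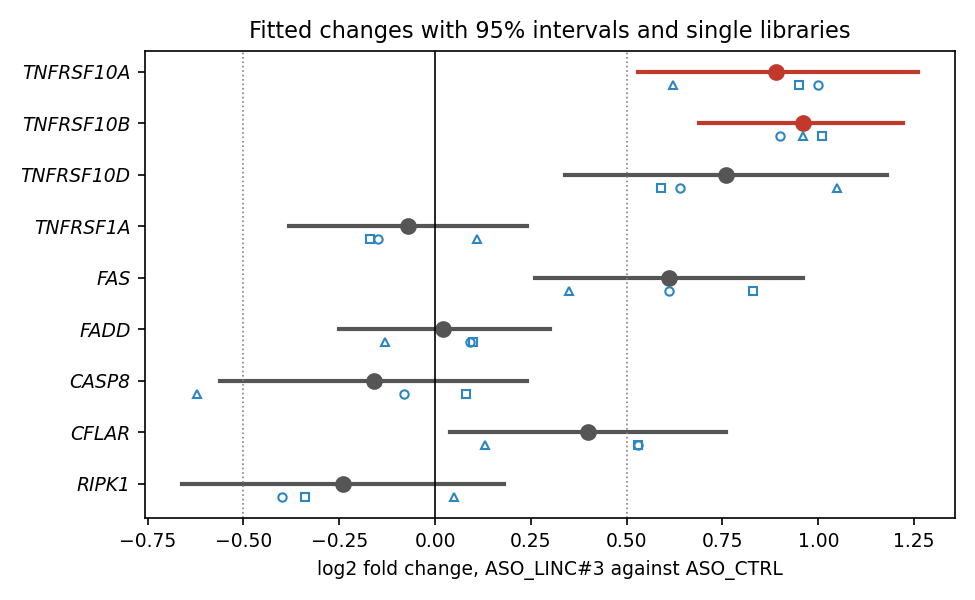
Fitted log2 fold changes of ASO_LINC#3 against ASO_CTRL (x axis) for the 9 genes, as filled circles with 95% intervals, red for the called genes and grey for the others. Open blue circles, squares and triangles give ASO_LINC#3 replicates 1, 2 and 3 set against the control mean, and dotted lines mark the fold bound of 0.5. The interval of *TNFRSF10B* runs from 0.69 to 1.22, and those of *TNFRSF1A*, *FADD*, *CASP8* and *RIPK1* include 0.

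Among the intracellular partners, *FADD*, the adaptor that links death receptors to caspase-8, had the log2 fold change nearest to 0 of the 9 genes. It lies on chromosome 11 from 70049402 to 70053496 and had 126, 118 and 130 CPM in the controls and 132, 133 and 114 CPM in the knockdown libraries. The knockdown libraries lay both above and below the controls. The log2 fold change was 0.02 (SE 0.13, 95% interval −0.25 to 0.30, adjusted p = 0.927 by edgeR), and 0.09 without ASO_LINC#3 replicate 3.

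*CASP8*, the initiator caspase of the pathway, lies on chromosome 2 from 202098166 to 202226559. It had 32.5, 33.1 and 30.5 CPM in the controls and 30.4, 34.0 and 20.8 CPM in the knockdown libraries. The low mean of the knockdown came from replicate 3, with 77 reads, since replicates 1 and 2 lay within or next to the control range. The log2 fold change was −0.16 (SE 0.18, 95% interval −0.56 to 0.24, adjusted p = 0.584 by edgeR) and 0.01 without that library. *CASP8* overlaps 69128 bases of *FLACC1* on the opposite strand in the annotation.

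*CFLAR*, the inhibitor c-FLIP, stands 56755 bases away from *CASP8* on the same strand, from 201980877 to 202041410. It had 112, 82.7 and 108 CPM in the controls and 145, 145 and 109 CPM in the knockdown libraries. Replicates 1 and 2 of the knockdown were above every control, whereas replicate 3 was within the control range. The log2 fold change was 0.40 (SE 0.16, 95% interval 0.04 to 0.76, adjusted p = 0.114 by edgeR), below the fold bound and not called. Without ASO_LINC#3 replicate 3 it was 0.52 (adjusted p = 0.0111 by edgeR), just short of the call. *CASP10*, a caspase gene closely related to *CASP8* that stands between them, had 1.83 ± 0.303 and 1.21 ± 0.683 CPM (SD, n = 3 per condition) and was not called (log2 fold change −0.48, adjusted p = 0.453 by edgeR).

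*RIPK1* encodes the kinase that the TNF receptor complex uses for survival signalling and that can also start necroptosis, a lytic form of cell death. It lies on chromosome 6 from 3064058 to 3115421 and had 20.2, 22.8 and 16.8 CPM in the controls and 15.0, 15.5 and 20.5 CPM in the knockdown libraries. Replicates 1 and 2 of the knockdown were below every control and replicate 3 was not. The log2 fold change was −0.24 (SE 0.19, 95% interval −0.66 to 0.18, adjusted p = 0.423 by edgeR), and −0.37 without replicate 3 of the knockdown (adjusted p = 0.114).

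Levels of different genes were compared per kilobase of the longest coding transcript in the annotation, as CPM per kilobase. In ASO_CTRL *FADD* (73 ± 3.4, SD, n = 3) and *TNFRSF1A* (71.2 ± 8.5) led and overlapped with each other. *TNFRSF10B* (22.4 ± 1.06), *FAS* (17.3 ± 1.81) and *CASP8* (10.9 ± 0.461) followed without overlap between neighbours. *CFLAR* (6.9 ± 1.08), *TNFRSF10A* (5.27 ± 0.166), *TNFRSF10D* (5.1 ± 0.946) and *RIPK1* (4.87 ± 0.733) came last, and the ranges of *TNFRSF10D* overlapped those of the other 3. DR5 mRNA was thus the most abundant of the TRAIL receptors in these cells by this scale. In ASO_LINC#3 the order of the leading 4 was the same, with *TNFRSF10B* at 43.4 ± 1.58 CPM per kilobase, and *TNFRSF10A* (9.7 ± 1.37), *CASP8* (9.69 ± 2.32), *CFLAR* (9.11 ± 1.4) and *TNFRSF10D* (8.7 ± 1.61) overlapped. This order assumes that reads scale with transcript length, which need not hold for dT-primed cDNA. Before division by length, *CFLAR* had a mean of 101 CPM and *CASP8* 32.1 CPM in ASO_CTRL, the reverse of their order per kilobase. The order also depends on the transcript chosen. With the next longest coding transcript the control means were 51.9 CPM per kilobase for *TNFRSF10B*, 25.7 for *FAS*, 22.9 for *CFLAR* (4415 in place of 14612 bases) and 14.5 for *TNFRSF10A*, the last then above *CASP8* at 11.7.

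The mRNAs of receptors, adaptor, caspase and inhibitor were compared by ratios of read counts within each library, which do not depend on the scaling between libraries. A prior count of 2, scaled to library size, was added to each gene. The ratios are not corrected for transcript length, so they do not give relative numbers of molecules. Protein was not measured in these libraries. The 6 pairs tested were chosen by role but with earlier results of these data known, so their p-values only describe them. Of these 6 pairs, 2 had a higher ratio in every knockdown library than in every control, and none had a lower one in every library. No share over all pairs of genes was computed. With 3 libraries against 3 an exact two-sided permutation test cannot give a p below 0.1. The reads of *CFLAR* per read of *CASP8* were 3.41, 2.48 and 3.52 in the controls and 4.74, 4.24 and 5.2 in the knockdown libraries. The ratio was higher by 1.52-fold on average, with all knockdown libraries above the controls (exact permutation test, p = 0.1, adjusted over the 6 pairs 0.3). In log2 units the difference was 0.60, and 0.53 without ASO_LINC#3 replicate 3. *FADD* per *CASP8* was 3.86, 3.55 and 4.21 in the controls and 4.32, 3.9 and 5.42 in the knockdown libraries, and the conditions overlapped (exact permutation test, p = 0.2). The log2 difference was 0.22, and 0.09 without ASO_LINC#3 replicate 3. *RIPK1* per *CASP8* was 0.623, 0.692 and 0.556 in the controls and 0.498, 0.462 and 0.987 in the knockdown libraries. Replicates 1 and 2 of the knockdown lay below every control and replicate 3 above every control, so the fold of 0.982 between the means (exact permutation test, p = 1) rests on replicate 3. The log2 difference was −0.03 with it and −0.37 without it.

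The ratios of *TNFRSF10B* to the other TRAIL receptors overlapped between the conditions. The ratio to *TNFRSF10A* differed by 1.07-fold and that to *TNFRSF10D* by 1.15-fold (exact permutation tests, p = 0.5 and p = 0.4). Without ASO_LINC#3 replicate 3 these log2 differences went from 0.10 to −0.02 and from 0.20 to 0.34. The ratio of *FAS* to *TNFRSF1A* was 0.24, 0.244 and 0.311 in the controls and 0.443, 0.526 and 0.313 in the knockdown libraries. Its separation was narrow, with knockdown replicate 3 next to control replicate 3 (1.59-fold, exact permutation test, p = 0.1, adjusted 0.3), and the log2 difference of 0.67 was 0.88 without knockdown replicate 3. A further 3 pairs were chosen after their values were seen, and are described without a test. *TNFRSF10B* per *FADD* was 0.741, 0.721 and 0.691 in the controls and 1.26, 1.35 and 1.53 in the knockdown libraries, a 1.92-fold difference. The difference was 2.23-fold per *CASP8* and 2.04-fold per *TNFRSF1A*. Without ASO_LINC#3 replicate 3 the log2 differences of these 3 pairs were 0.86, 0.95 and 1.11, against 0.94, 1.16 and 1.03 with it. In the knockdown libraries the reads of *TNFRSF10B* therefore came to between 0.961 and 1.2 per read of *TNFRSF1A*, from between 0.445 and 0.585 in the controls.

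**Figure D3:**
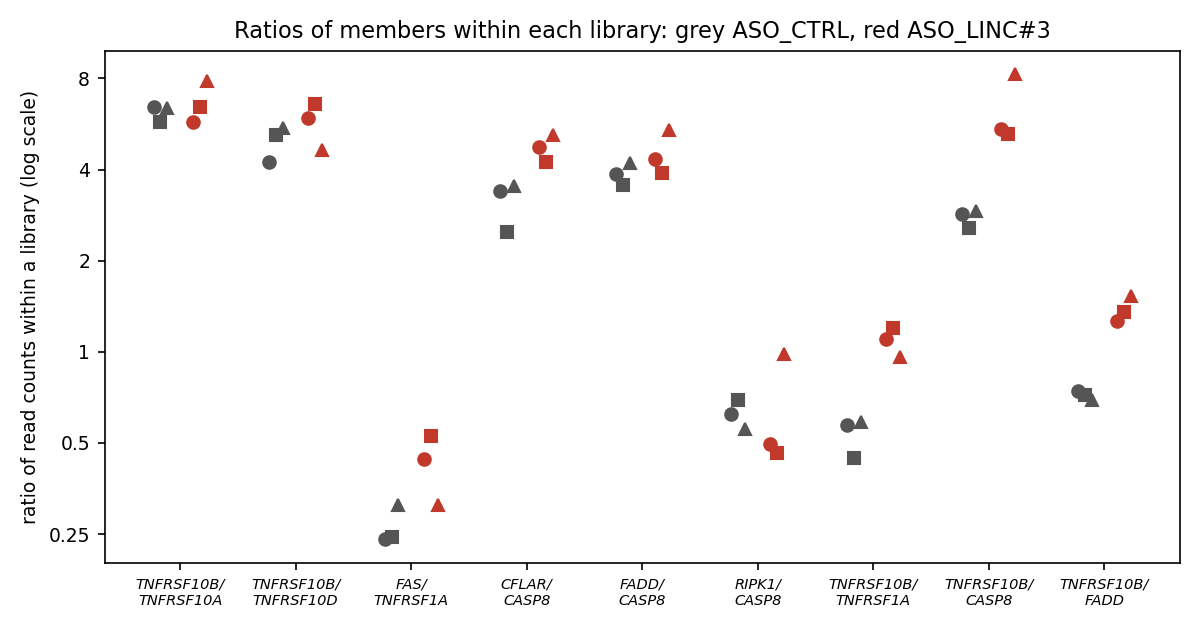
Ratios of read counts of 2 genes within each library (y axis, log scale) for the 9 pairs, in ASO_CTRL (grey) and ASO_LINC#3 (red), with circles, squares and triangles for replicates 1, 2 and 3. The red points stand above all grey points for *FAS* to *TNFRSF1A*, *CFLAR* to *CASP8* and the last 3 pairs, which were picked with their values known.

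The rest of the pathway was read from 63 genes in 6 lists, of which 54 were listed and 50 tested. The lists were written with earlier results of these data known, so the shares given for them are descriptions and not tests. Of these 50 genes 6 were called higher and 1 lower, against 4.91% and 2.63% of all tested genes, and their median log2 fold change was 0.18. Of the 5 ligand genes only *TNF* was listed, at 0.662 ± 0.372 CPM in ASO_CTRL and 0.474 ± 0.553 CPM in ASO_LINC#3 (SD, n = 3 per condition), below the filter. The genes of TRAIL, FAS ligand, LTA and TNFSF15 were not analysed here.

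Of 4 tested genes for other receptors 1 was called, higher, against 4.91% of all tested genes called higher. This was *TNFRSF1B*, the second TNF receptor, which has no death domain. It had 5.64, 5.84 and 5.23 CPM in the controls and 11.7, 12.1 and 12.4 CPM in the knockdown libraries, without overlap. Its log2 fold change was 1.12 (SE 0.19, adjusted p = 0.00292 by edgeR), in contrast to −0.07 for *TNFRSF1A*. It rests on 34 to 80 reads per library and was still called without ASO_LINC#3 replicate 3 but lost the call in the other 5 such fits (adjusted p from 0.0115 to 0.025). Of the 4 genes, 1 was separate upwards and 1 downwards, against 18.7% and 17.3% of all tested genes. The latter was *TNFRSF21*, with means of 15.2 CPM in ASO_CTRL and 10.3 CPM in ASO_LINC#3 (log2 fold change −0.55, adjusted p = 0.102 by edgeR, not called). *TNFRSF25* at 0.53 (adjusted p = 0.13 by edgeR) and *EDA2R* at −0.11 (adjusted p = 0.697 by edgeR) had overlapping conditions and were not called.

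Of 21 tested genes of the receptor signalling complex 3 were called higher and none lower, against 4.91% and 2.63% of all tested genes. A positive log2 fold change was found for 18 of them, against 7292 of the 14660 tested genes, and the median was 0.31. *TNFAIP3*, whose product A20 edits ubiquitin chains and damps TNF receptor signalling, had 57.4, 46.4 and 52.5 CPM in the controls and 148, 145 and 113 CPM in the knockdown libraries. Its log2 fold change was 1.38 (SE 0.15, adjusted p = 0.000248 by edgeR). *TNIP1*, which encodes a partner of A20, rose by 1.14 on the log2 scale (SE 0.15, adjusted p = 0.000705 by edgeR), with 275 CPM in knockdown replicate 3 against 204 and 201 CPM in replicates 1 and 2. The A20 pair kept its calls in all 6 fits without 1 library. *TRAF1*, an adaptor that binds TRAF2 and the cellular IAP proteins, rose by 1.78 (SE 0.31, adjusted p = 0.00343 by edgeR) from 15 to 35 reads in the controls. Without ASO_CTRL replicate 2 or 3 or ASO_LINC#3 replicate 1 its adjusted p was from 0.0127 to 0.026.

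Of 11 tested modulators of caspase-8 and of the death-inducing complex 1 was called higher and none lower, against 4.91% and 2.63% of all tested genes. All knockdown libraries lay above all controls in 4 of them and below in 2, against 18.7% and 17.3% of all tested genes. *NOL3*, which encodes ARC, a CARD protein that inhibits apoptosis, had 22, 21.5 and 20.8 CPM in the controls and 34, 38.1 and 43.3 CPM in the knockdown libraries. Its log2 fold change was 0.84 (SE 0.15, adjusted p = 0.00404 by edgeR), and it kept its call only without ASO_LINC#3 replicate 3 (0.011 to 0.0314 in the other 5 fits). *DAXX*, whose product binds FAS, stood at 0.00 (SE 0.12).

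Of 11 tested genes of the mitochondrial and caspase steps that follow caspase-8, none was called higher and 1 lower, against 4.91% and 2.63% of all tested genes. The conditions were separate upwards in 2 of them and downwards in 1, against 18.7% and 17.3% of all tested genes. *CASP6*, an effector caspase, had 77.1, 77.3 and 84.1 CPM in the controls and 52.3, 51.2 and 44.1 CPM in the knockdown libraries. It fell by 0.69 on the log2 scale (SE 0.13, adjusted p = 0.0058 by edgeR), again with a call kept only without ASO_LINC#3 replicate 3 (0.0205 to 0.0414 in the other 5 fits). *BID*, whose product is the substrate through which caspase-8 reaches mitochondria, had a log2 fold change of −0.03, with an SE of 0.12. The median of these genes was −0.01.

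Of 3 tested necroptosis genes 1 was called, higher, against 4.91% of all tested genes called higher. *MLKL*, which encodes the membrane-lysing effector of necroptosis, had 5.51, 4.98 and 5.04 CPM in the controls and 13, 13.3 and 10.8 CPM in the knockdown libraries, so all knockdown libraries were high. Its log2 fold change was 1.27 (SE 0.20, adjusted p = 0.00182 by edgeR), from 29 to 89 reads per library. The call held in 3 of the 6 fits that left out a library, and the adjusted p was from 0.01 to 0.0171 without ASO_CTRL replicate 2 or 3 or ASO_LINC#3 replicate 1. *RIPK3*, the kinase that activates its product, was not analysed here.

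**Figure D4:**
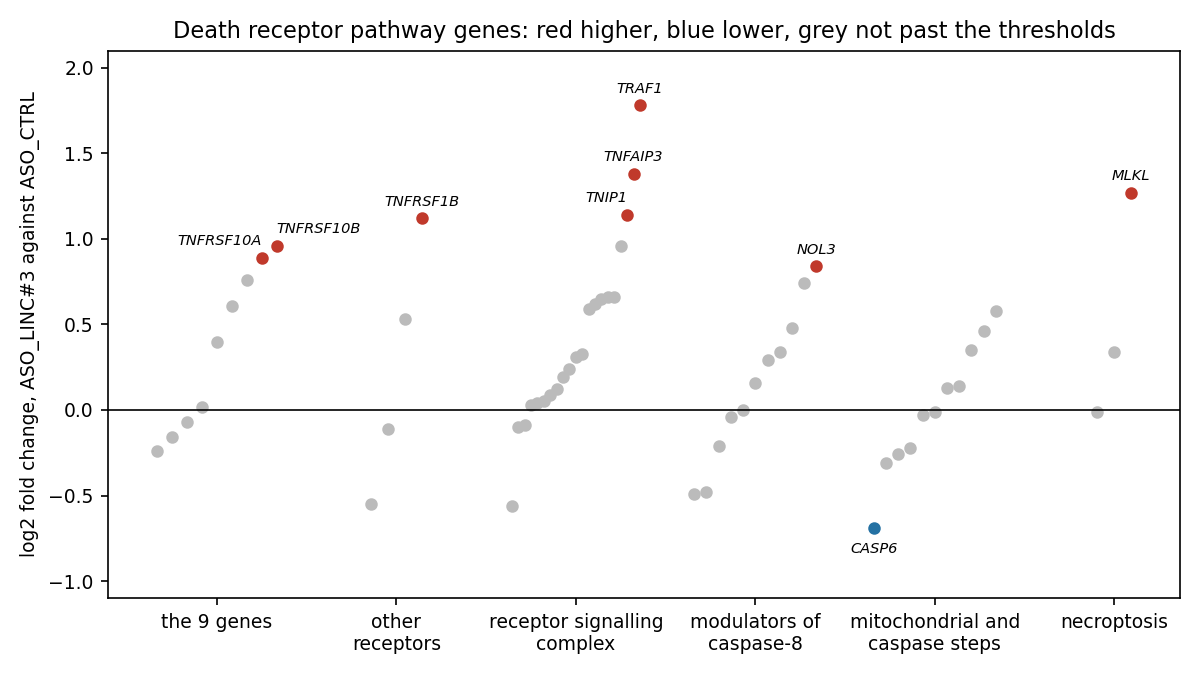
Fitted log2 fold changes of ASO_LINC#3 against ASO_CTRL (y axis) for the 9 genes and for the 50 tested genes of the pathway lists (x axis), 1 point a gene, red for called higher, blue for called lower and grey for not called. The 8 red points include *TNFRSF10A* and *TNFRSF10B*, and the 1 blue point is *CASP6* at −0.69.

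RefSeq promoter windows of GRCh38.p14, from 250 bases before to 50 after each start site, matched 6 of the 9 genes. They were searched on both strands for a loose form of the κB element that NF-κB factors bind (GGG, then 4 bases of any kind, then TCC). A match to this form need not be a κB element. *TNFRSF10A*, *TNFRSF10B* and *TNFRSF10D* had no entry. The form was in 1 of 4 windows of *CFLAR* and 1 of 3 windows of *FAS*. It is in 22.6% of all windows and in 25.9% of all genes with a window, so 2 of 6 genes is near the background. A gene with several windows has more chances of a match. The sites are shown on the gene's strand with the 10 bases that match in capitals.
*CFLAR*, chr2:201118611-201118636, plus strand: cggggggcGGGGAATTCCgcagacag
*FAS*, chr10:88991301-88991326, plus strand, with the element on the opposite strand: gaactcctGGACAAGCCCtgacaagc
The first capital bases stand at −97 and −122 from the start site of the window. A match of letters does not show that a factor binds there, and no binding was measured in these libraries.

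The genes whose log2 CPM over the 6 libraries was most like that of the called receptors were looked up among tested genes with a mean of at least 10 CPM. For *TNFRSF10B* these were *KRTAP2-3* (Pearson r = 0.999), *LSG1* (0.998) and *PHRF1* (0.998). For *TNFRSF10A* they were *SNAPC1* (0.998), *F2R*, the thrombin receptor (0.997), and *PNMA2* (0.997). These values describe 6 libraries that fall into 2 conditions, so a high r is reached by many genes that differ between the conditions.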

How the data were processed

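RNA-seq libraries of H226 cells were compared, 3 with ASO_LINC#3 and 3 with ASO_CTRL, grouped and numbered by their titles. The authors sequenced single-end reads from dT-primed cDNA, used STAR for alignment (hg19), and deposited unnormalized counts of reads for each gene name. The counting tool, annotation and strand setting are not given in the sources used here. The 4 totals of reads on no gene (24.8% to 28.1% of each library) were left out. Libraries of 1 condition differed by more than sampling noise. The chi-square per degree of freedom was 2.5 for ASO_LINC#3 replicates 1 and 2, and from 6.94 to 14 for the other pairs. Each library was counted as 1 replicate, although such differences do not show that the cultures were separate.

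The whole table was fitted with edgeR 4.0.16 in R 4.3.3 (filterByExpr, TMM, quasi-likelihood F-test, design of condition only), the study's test and thresholds. The common biological coefficient of variation was 0.159. Standard errors were derived from the F statistic. Library log2 changes and the ratios within a library used a prior count of 2, scaled to library size. The fit was also run on simulated counts of independent libraries, with changes put only into genes of higher counts. That run does not test how the fit treats a deviating library or technical replicates. Genes were matched by symbol to GENCODE lifted to GRCh37 for positions, and by older symbol where needed (*OTULIN* is listed as FAM105B). GC content and length, available for 81.6% of tested genes, entered as spline offsets. The 9 genes, the lists and the pairs were chosen with earlier results of these data known. The genes named are the 9, the called genes of each list, the overlapping genes in the table and the 3 genes most like each called receptor. *TNF*, *TNFRSF10C*, *TNFRSF21*, *TNFRSF25*, *EDA2R*, *CASP10*, *BID*, *DAXX* and the 2 called neighbours were named after their values were seen. The alternatives were DESeq2 1.42.0, limma-voom (limma 3.58.1), other scalings, filters and thresholds, robust dispersion, a replicate block and leaving out each library.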

Additional observations from a re-analysis of the deposited data

How the results depend on the processing

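The count of 2 called death receptor genes stayed at 2 under other scalings, filters, limma-voom and robust dispersion, and was 3 with DESeq2 and with the correction for GC content and length. It was 4 at an adjusted p below 0.05 and 0 with glmTreat against 0.5, a stricter test in which the fold itself must pass the bound. Leaving out 1 library gave from 1 to 3 called genes, from 2 to 14 of the 50 pathway genes (7 with all libraries) and from 359 to 2616 of all tested genes (1106 with all libraries). The highest count of each came without ASO_LINC#3 replicate 3. For the pathway genes 12 were called at 0.05 and 2 with glmTreat, and over all tested genes 2465 and 384. The correction for GC content and length gave 1660 over all genes. The replicate block gave 1 of the 9 genes, 4 pathway genes and 656 of all tested genes, and *TNFRSF10A* then had an adjusted p of 0.0169. The deviations of same-numbered libraries correlated at 0.06, −0.15 and −0.18, and not every library correlated best with its own number. With only 3 libraries per condition, each centred on its condition mean, these values cannot decide whether the numbers pair the libraries. With block and correction together the counts were 2, 8 and 1121. The sign changed in some values near 0. Over the fits without 1 library *TNFRSF1A* ran from −0.16 to 0.03 (above 0 without ASO_CTRL replicate 2), *CASP8* from −0.30 to 0.01 (above 0 without ASO_LINC#3 replicate 3) and *FADD* from −0.01 to 0.09 (below 0 without ASO_CTRL replicate 2 or ASO_LINC#3 replicate 1 or 2). Of the log2 ratios, *RIPK1* to *CASP8* ran from −0.37 to 0.17 and *TNFRSF10B* to *TNFRSF10A* from −0.02 to 0.20. The causes were not tested. Depth limits *TNFRSF10A*, *TNFRSF10D*, *RIPK1* and *CASP8*, which had as few as 81, 94, 76 and 77 reads in a library.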
